A study of Mus musculus with 4 samples.

Results

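The cells described here are interstitial cells of the fetal mouse ovary with at most 1 of the matrix genes Mgp, Islr and Lum detected. They were taken from embryonic day E12.5 to E14.5. A cell was counted if its deposited values met 5 conditions. At least 3 of Col1a1, Col1a2, Acta2, Mfap4, Tcf21 and Pdgfra were above 0, and the mean of these 6 genes exceeded both the mean of Fst, Wnt4, Wnt6, Irx3 and Runx1 (supporting cells) and that of Upk3b, Krt19 and Krt7 (surface epithelium). At most 1 of 6 germ cell genes, at most 1 of 3 endothelial genes and at most 1 of Mgp, Islr and Lum were above 0. The rule found 1190 cells (356, 622 and 212 from the first to the last of these days) of 14471 cells in these libraries and 19387 in the whole series. The cells were thus chosen by the measured values of the genes in the rule, so their levels, and the contrasts with the other cell classes, are given as descriptions.

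Gonads came from XX C57BL/6 mice, were digested to single cells with TrypLE and were profiled with the 10x Chromium 3′ kit (V2). There was 1 library for each stage from E11.5 to E14.5, so no test was possible and stage cannot be told apart from library. All intervals are exact 95% intervals (Poisson for sums of unique molecular identifiers, UMIs, which count captured RNA molecules, and Clopper-Pearson for shares of cells) and cover counting error only. A level is the UMI sum of 1 class of cells in 1 library as counts per 1000000 UMIs of those cells (CPM). To be called higher or lower between 2 such sums, a gene needed 50 UMIs or more in total, a CPM of 20 or more on the higher side, intervals without overlap and a ratio of 2 or more. Values given as a series of 3 stand for E12.5, E13.5 and E14.5 in that order.

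The interstitium is the tissue between the germ cells with their supporting cells and the surface epithelium. In the fetal gonad its cells express Pdgfra, the receptor for platelet-derived growth factor A, and Tcf21, a basic helix-loop-helix factor of visceral mesenchyme. In later ovarian development such cells are known as a source of theca, fibroblast and smooth muscle cells.

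The median counted cell carried 12848, 9210.5 and 9295.5 UMIs. The lowest total differed more, with 9813, 5408 and 7854 UMIs. Pairs of libraries shared 19 to 33 cell barcodes, and among the counted cells 1 barcode was shared. A doublet caller marked 9 of the 1190 cells. Globin made up over 5% of the UMIs in 1 cell at E12.5 and 4 cells at E14.5, and granulocyte genes such as S100a8 over 1% in 1 cell at E13.5. Of the 20 genes with the largest and smallest ratios over stage, those whose value moved without these 6 cells are given both ways. Sums and calls of the marker lists include these cells.

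The label given to this class, stromal progenitor-like, rests on Tcf21 and Pdgfra and on 4 markers that the rule did not use. These are Ngfr (the low-affinity neurotrophin receptor), Itga8 (an integrin subunit), Tril (a Toll-like receptor accessory protein) and Emilin1 (an elastic fibre glycoprotein). All 4 were present. Ngfr stood at 115 CPM (106 to 124), 143 (134 to 153) and 107 (93.6 to 122), against 3.998 CPM at E12.5 and 4.79 CPM at E14.5 in supporting cells. Emilin1 was measured at 178 CPM (167 to 190), 228 (217 to 240) and 227 (208 to 248) in stage order, and Tril at 115, 108 and 111 CPM. Itga8 was the marker with a downward course, at 59.4 CPM (52.9 to 66.4), 53.1 (47.6 to 59.1) and 32.9 (25.7 to 41.5).

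These markers did not set the class apart from its closest neighbour. Matrix-rich stroma, the cells that meet the same conditions but have at least 2 of Mgp, Islr and Lum above 0, had Ngfr at 125, 144 and 103 CPM (log2 ratio between -0.12 and 0.05) and more of the other markers. The log2 ratio of the counted cells over matrix-rich stroma for Itga8 was -0.83 (-1.13 to -0.51), -0.62 (-0.85 to -0.39) and -0.58 (-0.999 to -0.182). For Tril it lay between -0.56 and -0.51, and for Emilin1 it went from -0.64 (-0.83 to -0.45) to -0.25 (-0.41 to -0.10). The 4 markers were thus found in both classes of interstitial cells, and the counted cells are called here by their rule, Mgp/Islr/Lum-low interstitial cells.

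**Figure D1:**
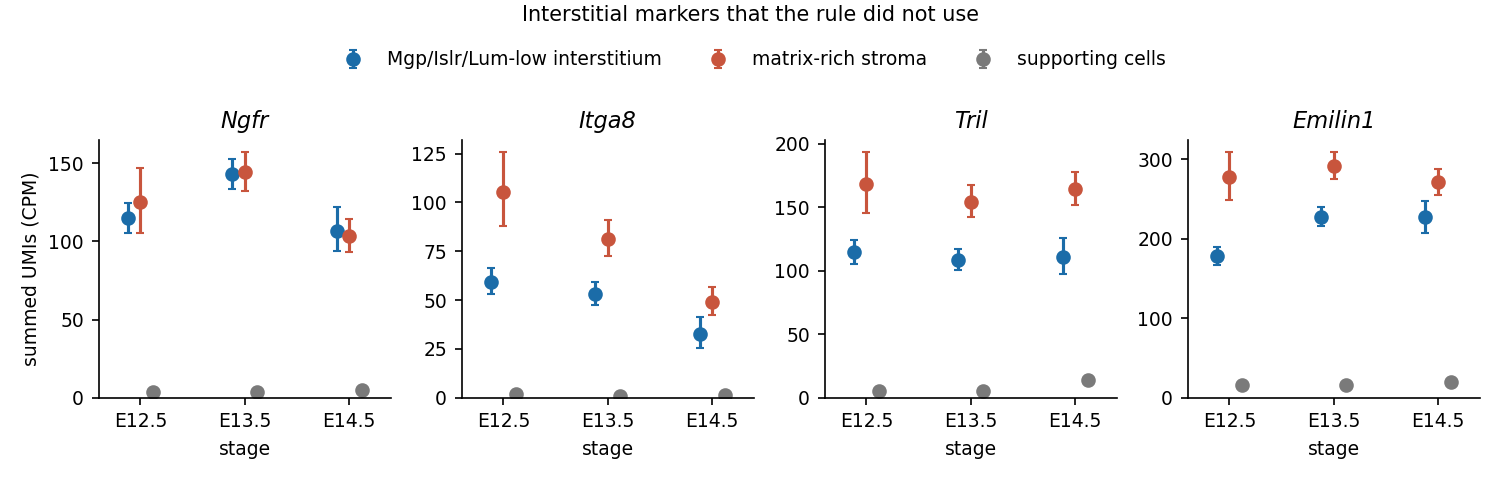
CPM of Ngfr, Itga8, Tril and Emilin1 (y axes, from 0) at each stage (x axes) in Mgp/Islr/Lum-low interstitium (blue), matrix-rich stroma (red) and supporting cells (grey), with 95% Poisson intervals and 1 library per stage. Itga8, Tril and Emilin1 lie lower in blue than in red at every stage, the intervals of Ngfr overlap, and supporting cells stay near 0.

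Shares of single cells gave the same order. With every cell thinned to 4000 UMIs, at least 2 of the 4 markers were found in 40.7% (35.6 to 46.0), 46.1% (42.2 to 50.1) and 40.1% (33.4 to 47.0) of the counted cells. In matrix-rich stroma it was 43 of 86 cells, 59.1% and 54.4%, and in supporting cells 0.826%, 0.520% and 1.76%. Without thinning they were 79.2%, 74.6% and 71.2% in the counted cells. At E14.5, 26.9% (21.0 to 33.4) of the thinned cells had none of the 4 markers.

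Cells at the edges of the rule were as follows, over the 3 libraries together. The 831 cells with exactly 1 of Mgp, Islr and Lum had 420 CPM of Col1a2 and 226 CPM of Emilin1, and the 585 cells just outside, with 2 of them, had 589 and 266 CPM. The 311 cells with exactly 3 of the 6 interstitial genes had 334 CPM of Col1a2 and 111 CPM of Ngfr, and the 180 cells with 2 of them had 203 and 80.1 CPM. At the edge of the means, 66 counted cells whose interstitial mean led by under 0.1 had 28.0 CPM of Ngfr and 779 CPM of Kctd14, a gene high in supporting cells, and 66 cells within 0.1 on the other side had 20.5 and 554 CPM. The 249 counted cells with 1 germ cell gene had 18.2 CPM of Dazl, and the 30 cells with 2 of them had 36.8 CPM. The 66 counted cells with 1 endothelial gene had 49.7 CPM of Pecam1, and 2 cells had 2 such genes, at 35.5 CPM. At the edge of the means, Ngfr was thus low on both sides and Kctd14 was higher inside than outside. Upk3b, a gene of the surface epithelium, stood there at 85.2 CPM inside and 152 CPM outside.

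Under the main rule, Mgp/Islr/Lum-low cells were the majority of the interstitium at E12.5 and the minority at E14.5. Of all cells that met the interstitial conditions they made up 80.5% (76.5 to 84.1), 61.5% (58.4 to 64.5) and 40.2% (35.9 to 44.5). This downward order also held under each of the 7 other versions of the rule or cell filter, with 28.4% to 80.5% among cells of at least 10000 UMIs. The minority at E14.5 did not hold in every version. When every cell was first thinned to 5000 UMIs, the share fell from 89.9% to 58.2% (53.6 to 62.6), still a majority. This share is decided by detection of Mgp, Islr and Lum, which are part of the rule, and detection depends on both their levels and the depth. The parts of the 2 in the downward order were not tested. The counted cells themselves carried more of these genes with stage. Mgp was found in 11.2%, 12.9% and 21.7% of them and Islr, a leucine-rich repeat protein of mesenchyme, in 41.6%, 60.3% and 56.6%, while Lum stayed at 1.69%, 1.29% and 3.77%.

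As a share of whole libraries the class stood at 7.35% (6.63 to 8.12), 12.8% (11.9 to 13.8) and 4.43% (3.86 to 5.05). Germ cells were 50.7% of the E14.5 library. Of the cells that were neither germ nor erythroid cells, the shares were 8.48% (7.65 to 9.36), 15.3% (14.2 to 16.5) and 9.29% (8.13 to 10.6), and the intervals of E12.5 and E14.5 overlapped. When cells were first thinned to 5000 UMIs, E14.5 (5.87%) came out above E12.5 (4.23%). The E13.5 library had the highest share in each of these 3 versions. The order of E12.5 and E14.5 depended on the denominator and on the depth.

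**Figure D2:**
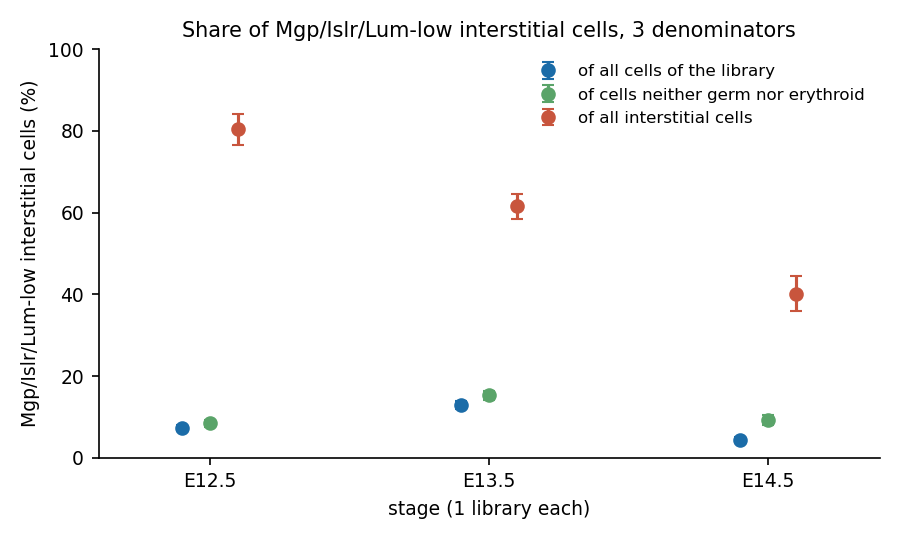
Share of Mgp/Islr/Lum-low interstitial cells (y axis, %) at each stage (x axis) of all cells of the library (blue), of cells neither germ nor erythroid (green) and of all interstitial cells (red), with 95% Clopper-Pearson intervals. The red points fall from 80.5% to 40.2%, and the blue and green points are highest at E13.5.

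Set beside supporting cells, the class showed the transcription factors of interstitial mesenchyme. The contrast follows from the rule and is a description. At all 3 stages, 382 of 5636 genes past the minimums (6.78%) were higher than in supporting cells and 393 (6.97%) were lower. Of 10 interstitial transcription factors outside the rule that passed, 9 were higher and none lower, among them Nr2f2, Maf, Prrx1, Meis1, Meis2, Tbx2 and Tbx3. Nr2f2, which encodes the orphan nuclear receptor COUP-TFII, stood at 310, 353 and 293 CPM against 40.6, 37.1 and 39.5 CPM in supporting cells.

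Signalling genes divided between the classes. Pdgfrb, the receptor for platelet-derived growth factor B, was higher in the interstitial cells (48.5, 59.8 and 40.3 CPM against 1.58, 1.67 and 3.01), whereas the ligand gene Pdgfa was lower (15.9, 13.48 and 15.3 CPM against 35.4, 38.5 and 41.4). Of 7 WNT pathway genes that passed outside the rule, Wnt5a and Sfrp1 were higher, and Rspo1 and Lgr5 lower. Wnt5a, a non-canonical WNT ligand, stood at 95.7, 131 and 112 CPM against 16.98, 15.3 and 21.1 CPM. Rspo1, the R-spondin that drives ovarian WNT signalling, stood at 17.1, 30.3 and 19.4 CPM against 99.3, 156 and 130 CPM. Of 3 hedgehog genes that passed, Gas1, a co-receptor, was higher (103, 177 and 87.95 CPM against 44.6, 61.7 and 26.1), and Gli1, a target gene of the pathway, was low throughout at 1.75, 1.90 and 1.85 CPM. Ptn, which encodes the secreted factor pleiotrophin, was one of the high genes of the class, at 500, 727 and 981 CPM against 24.4, 32.6 and 76.7 CPM.

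Against matrix-rich stroma few genes differed at every stage. This contrast, too, follows from the rule and is a description. Over all 3 stages 8 of 5190 genes (0.154%) were called, 1 higher (0.0193%) and 7 lower (0.135%). Stage by stage, 32 genes were higher (0.547%) and 56 lower (0.957%) at E12.5, 19 higher (0.337%) and 36 lower (0.639%) at E13.5, and 19 higher (0.326%) and 30 lower (0.515%) at E14.5. Mgp and Lum, part of the rule, were among the lower ones, whereas Islr, also part of the rule, was not among the 8. The others included Dcn (the small proteoglycan decorin), Col14a1 (a fibril-associated collagen), Cxcl12 (a chemokine) and Svep1 (an adhesion protein). Dcn stood at 32.0, 71.5 and 208 CPM against 95.2, 283 and 426 CPM in matrix-rich stroma, and Cxcl12 at 21.5, 30.6 and 22.7 CPM against 68.9, 137 and 59.8 CPM. The gene that was higher, Tm4sf5, a tetraspan membrane protein, stood at 23.7, 20.6 and 31.9 CPM against 10.2, 7.72 and 11.1 CPM, and 166 CPM of it lay in sub-cluster 6, described further on. The interstitial factors Nr2f2 and Maf were not called, with Maf at 131, 190 and 169 CPM against 136, 194 and 185 CPM. Among cells with none of Mgp, Islr and Lum above 0, 20 genes were called in place of 8. With the 6 cells rich in globin or granulocyte genes left out, 1 gene was higher and 6 were lower.

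Across the 2 days 219 of 5866 genes (3.73%) were called, 134 higher (2.28%) and 85 lower (1.45%) at E14.5 than at E12.5, with a median log2 ratio of -0.004 over all genes past the minimums. Of the 134 higher genes, 116 moved upward in both daily steps, and of the 85 lower genes, 79 moved downward in both. In the first step 42 of 5750 genes (0.73%) were higher and 95 (1.65%) lower, and in the second 165 of 5797 (2.85%) were higher and 56 (0.966%) lower. For 18 of the 134 higher genes and 17 of the 85 lower genes, the germ or erythroid cells of the E14.5 library had over 2 times the level of the counted cells. The share over all genes past the minimums is not given here. In the cells of sub-clusters 1 to 3 alone, 108 genes were higher and 121 lower, of which 83 and 61 were called in all cells too. With the 6 cells rich in globin or granulocyte genes left out, 138 genes were higher and 83 lower.

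Part of the matrix genes rose. Of 18 matrix genes other than collagens that passed the minimums (of 24 measured), 5 were higher and 0 lower, with a median log2 ratio of 0.29. Over all genes past the minimums, 2.28% were higher and 1.45% lower. Dcn went from 32.0 CPM (27.3 to 37.3) at E12.5 to 71.5 (65.1 to 78.4) and 208 (190 to 228), a log2 ratio of 2.70 (2.44 to 2.97). The intervals of its 3 stages were far apart. Fbln5, which organises elastic fibres, went from 3.30 CPM to 8.40 and 25.9 CPM (log2 2.97), and Eln, elastin itself, from 18.1 to 39.2 and 62.0 CPM (log2 1.78). Loxl1, an enzyme that crosslinks elastin, went from 33.2 to 74.1 and 79.2 CPM. The fifth, Mfap4, is a gene of the rule, at 78.8, 225 and 352 CPM. In matrix-rich stroma the same genes stood higher at E14.5, with 426 CPM of Dcn, 59.5 of Fbln5, 102 of Eln and 132 of Loxl1.

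Collagens did not move as one. Of 13 that passed (of 16 measured), 3 were higher and 2 lower (2.28% and 1.45% of all genes), with a median log2 ratio of 0.48. Col6a1 and Col6a2, chains of the microfibrillar collagen VI, went from 44.4 to 122 and 194 CPM and from 47.6 to 140 and 194 CPM (log2 2.13 and 2.03). Col1a1, a gene of the rule, was the third, at 134, 245 and 303 CPM. Col4a2, a basement membrane chain, went the other way from 104 CPM (95.4 to 113) to 69.8 and 46.3 (37.7 to 56.3), and Col14a1 from 31.1 to 13.48 and 15.3 CPM. Both were higher in sub-cluster 4, described further on, at 187 and 74.5 CPM against 58.4 and 10.1 CPM in the other cells of the class. That sub-cluster went from 25.6% of the class at E12.5 to 0.943% at E14.5, and its part in these falls was not tested. Col3a1 stood at 202, 281 and 360 CPM and missed the ratio of 2.

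Contractile genes rose over the same days, apart from desmin. Of 5 smooth muscle markers that passed (of 6 measured), 4 were higher and 1 lower, against 2.28% and 1.45% of all genes. Myl9, a myosin light chain, went from 114 CPM (105 to 124) to 193 (183 to 205) and 319 (296 to 344). Tagln, an actin-binding protein, stood at 21.9, 19.8 and 54.6 CPM, and Myh11, the smooth muscle myosin heavy chain, at 5.82, 6.34 and 20.4 CPM, so for both the rise lay in the second day. Acta2, a gene of the rule, stood at 123, 144 and 288 CPM. Des, the muscle intermediate filament, fell from 83.3 to 55.7 and 38.4 CPM (log2 -1.12). It stood at 179 CPM in sub-cluster 4 and at 41.2 CPM in the other cells of the class, and the part of that sub-cluster in the fall was not tested. Cnn1, the sixth marker, did not pass the minimums. Matrix-rich stroma went from 128 to 365 CPM of Myl9 and from 16.2 to 69.0 CPM of Tagln, and supporting cells had 404 and 526 CPM of Myl9.

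Immediate-early genes, fast-responding transcription factors that growth factors and cell stress induce, fell in part. Of 7 genes that passed, of 10 measured on a list of genes induced by stress and tissue dissociation, 4 were lower and none higher. Their median log2 ratio was -1.27, and of all genes 1.45% were lower. Fos went from 759 CPM (736 to 784) at E12.5 to 455 (438 to 472) and 253 (232 to 275), Egr1 from 377 to 256 and 137 CPM, Junb from 252 to 200 and 80.1 CPM, and Ier2 from 560 to 549 and 233 CPM. Jun stood at 501, 392 and 494 CPM and was not called. The share of cells with a Fos UMI, at 2000 UMIs per cell, was 70.8%, 52.3% and 33.5% (96.6%, 88.6% and 67.9% without thinning). Matrix-rich stroma went from 938 to 269 CPM of Fos, and supporting cells from 498 to 376 CPM. Summed over the list, the counted cells went from 2630 to 1976 and 1291 CPM, matrix-rich stroma from 3265 to 2155 and 1328 CPM, and supporting cells from 1640 to 2306 and 1718 CPM.

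Among the 10 genes with the smallest ratio were Dusp6, Dusp5 and Nr4a1. Dusp6, a phosphatase that acts on the ERK kinases and is induced by their signal, fell from 83.7 CPM (75.9 to 91.9) to 45.0 and 15.3 (10.5 to 21.5). Dusp5, of the same family, fell from 21.7 to 11.4 and 3.24 CPM, and Nr4a1, an inducible nuclear receptor, from 35.1 to 16.5 and 5.09 CPM. In matrix-rich stroma Dusp6 stood at 57.0 and 14.2 CPM and Nr4a1 at 46.8 and 5.005 CPM at E12.5 and E14.5. Their intervals at the first and last stage lie apart because the call required it.

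A further 2 lower genes, Hmga2 and Igf2bp1, belong to no list and were picked after their values were seen. Hmga2, a chromatin protein of growing embryonic tissue, went from 929 CPM (903 to 955) to 639 (620 to 659) and 287 (265 to 311), and Igf2bp1, an RNA-binding protein of fetal growth, from 78.0 to 49.2 and 27.8 CPM. Igf2, the fetal insulin-like growth factor, stood at 318 CPM (303 to 334), 77.7 (71.0 to 84.9) and 97.2 (84.5 to 111), with its whole drop in the first day. Igf1 went the opposite way, from 30.1 to 42.3 and 67.6 CPM. Of the 12 imprinted growth genes, all of which passed, 2 were lower, Igf2 and Peg10, and none higher. Their median log2 ratio was -0.15, and of all genes 1.45% were lower. Hmga2 was also lower at the end in matrix-rich stroma (1078 to 286 CPM) and supporting cells (186 to 62.4 CPM), as was Igf2 (408 to 137 and 373 to 146 CPM).

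**Figure D3:**
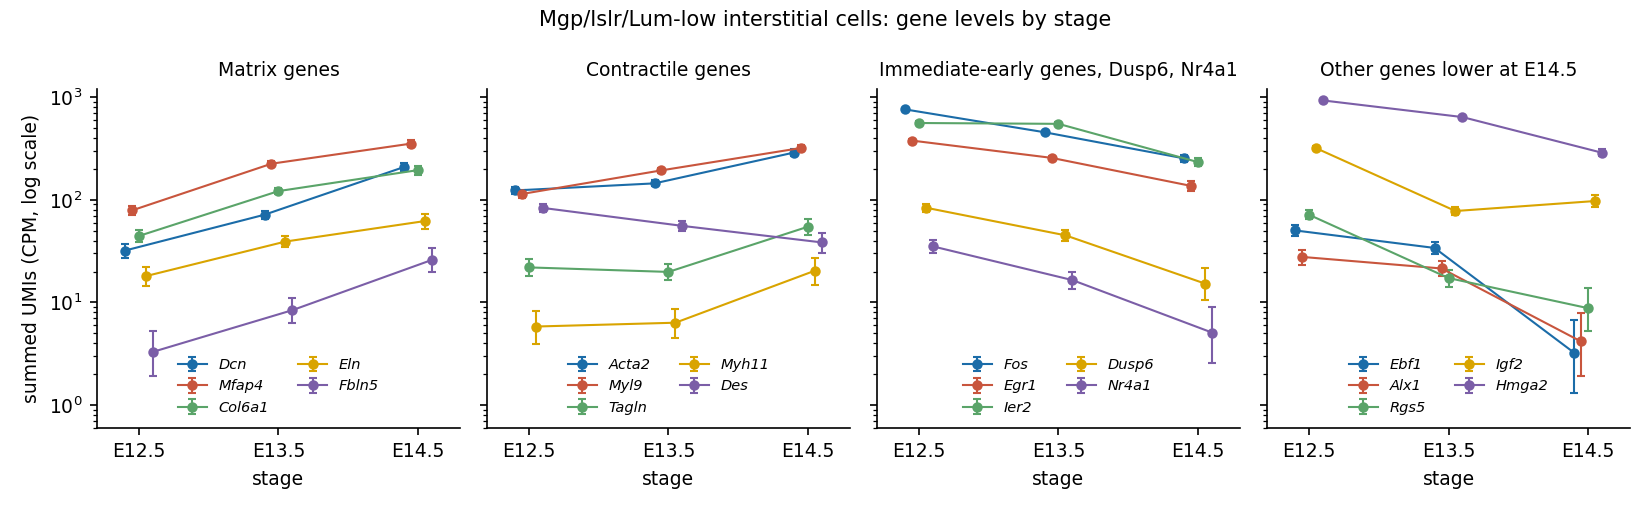
CPM on a log axis (y) at each stage (x) for 5 genes in each of 4 groups in Mgp/Islr/Lum-low interstitial cells, with 95% Poisson intervals and 1 library per stage. The matrix genes and, except for Des, the contractile genes are higher at E14.5 than at E12.5, whereas Fos, Egr1, Ier2, Dusp6, Nr4a1, Ebf1, Alx1, Rgs5, Igf2 and Hmga2 are lower at E14.5 than at E12.5.

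Of 14 interstitial transcription factors that passed (of 20 measured), 1 was higher and 2 lower from E12.5 to E14.5, against 3.73% of all genes called, with a median log2 ratio of -0.15. Osr1, an odd-skipped zinc finger factor, went from 12.6 to 20.5 and 40.3 CPM. Nr2f1, the paralog of Nr2f2, fell from 47.0 (41.2 to 53.3) to 24.9 and 10.6 CPM (6.75 to 16.0), whereas Nr2f2 was not called. The other lower factor was Ebf1, which had the smallest ratio of all genes called (50.3, 33.9 and 3.24 CPM) and is described with sub-cluster 4. Tcf21, of the rule, stood at 96.5, 176 and 70.4 CPM. None of 8 gonadal identity genes that passed (of 10 measured) was called, with a median of -0.06. Wt1, the gonadal zinc finger factor, stood at 311, 408 and 308 CPM and Gata4 at 55.5, 84.5 and 88.9 CPM.

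Beside the 3.73% of all genes, the signalling lists gave these counts. None of 3 PDGF, 4 hedgehog and 6 integrin and adhesion genes that passed was called from E12.5 to E14.5. In each of 5 further lists 1 gene was called. Heyl, a target of NOTCH, was lower (20.2, 19.5 and 6.48 CPM, 1 of 3 genes), as were Id1, a target of BMP signalling (272, 207 and 126 CPM, 1 of 7), and Nrp1, a semaphorin co-receptor (30.7, 25.5 and 14.4 CPM, 1 of 6). Crabp1, which binds retinoic acid in the cytoplasm, was higher (47.9, 94.4 and 115 CPM, 1 of 5), and Wnt6, a gene of the rule, was higher (20.8, 19.2 and 54.2 CPM, 1 of 7). Ptn had a log2 ratio of 0.97 (0.89 to 1.05) and so stayed just under the size asked. Of 9 HOX genes that passed, Hoxa5 and Hoxa7 were lower, at 26.2 and 36.3 CPM at E12.5 and 10.6 and 14.4 CPM at E14.5.

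Some of the largest ratios belonged to genes that stood higher in erythroid or germ cells. All 5 erythroid markers that passed were higher, against 2.28% of all genes. Hbb-bs, an adult globin, went from 109 to 141 and 4221 CPM. Without the 6 cells rich in globin or granulocyte genes its log2 ratio was 3.89 in place of 5.27. At E14.5 a Hbb-bs UMI was found, at 2000 UMIs per cell, in 65.1% of the counted cells, 63.3% of matrix-rich, 69.3% of supporting and 61.7% of germ cells. The embryonic globins Hba-x and Hbb-y fell by 3.95 and 3.88 on the log2 scale, and by 1.37 and 1.48 without those cells. Globin genes lie in near-identical copies, and their reads can be split between them. Mt2, a metallothionein, went from 4.27 to 5.71 and 52.3 CPM, a log2 ratio of 3.61 with those cells and 1.88 without them, and erythroid cells had 1700 CPM of it.

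Smc1b, the meiotic cohesin subunit, went from 1.16 to 2.85 and 21.8 CPM, while the germ cells of the E14.5 library had 1193 CPM. At 2000 UMIs per cell, Smc1b was found at E14.5 in 6.60% of the counted cells, in 2.85% of matrix-rich, 3.04% of supporting and 82.3% of germ cells. Without thinning the shares were 16.0%, 18.4%, 14.9% and 99.8%. Its E14.5 level was 17.9 CPM in matrix-rich stroma, 15.2 CPM in supporting cells and 17.4 CPM in surface epithelium. The 8 germ cell markers summed to 17.9, 21.7 and 37.0 CPM in the counted cells and to 21.2, 28.4 and 36.1 CPM in supporting cells. The part of free or germ cell RNA in these values was not tested.

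The remaining genes with the largest ratios were Angptl7 (a secreted angiopoietin-like protein), Clu (the chaperone clusterin), Srpx2, Gstm6 and Lmcd1. Angptl7 went from 1.55 to 13.3 and 23.1 CPM and Srpx2, a secreted sushi-repeat protein, from 2.52 to 11.7 and 25.5 CPM, and supporting cells held under 4 CPM of each at E14.5. Lmcd1, a LIM-domain transcription cofactor, went from 5.43 to 10.6 and 34.3 CPM. Clu (4.27, 8.88 and 51.4 CPM) and Gstm6 (3.49, 7.29 and 25.9 CPM) were higher in supporting cells at E14.5, at 235 and 248 CPM. In sub-clusters 1 to 3 their log2 ratios were 2.10 and 1.00 in place of 3.59 and 2.89, and that of Angptl7 2.38 in place of 3.90. Gstm6 belongs to a family of close paralogs, so its counts are uncertain. The lower genes outside the groups above were Fabp7, a fatty acid binding protein (23.9, 11.6 and 2.78 CPM), and Calb1, the calcium-binding protein calbindin (42.3, 8.40 and 7.87 CPM).

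Genes of cell division stood lower at E13.5 than at the stage before or after it. All 10 G2 and mitosis genes passed the minimums, 2 were lower in the first day, 6 higher in the second and none called from E12.5 to E14.5. Over all genes, 1.65% were lower in the first day and 2.85% higher in the second. The sum of the 10 genes was 2401 CPM (2359 to 2444), 1343 (1314 to 1372) and 2817 (2747 to 2889). Top2a, the topoisomerase of dividing cells, stood at 442, 229 and 547 CPM. At 2000 UMIs per cell it was found in 44.7% (39.4 to 50), 20.9% (17.8 to 24.3) and 53.8% (46.8 to 60.6) of the counted cells, and in 71.1%, 34.7% and 72.6% without thinning. The share in supporting cells was 7.52%, 2.83% and 5.76% (20.9%, 13.2% and 17.9% without thinning), at median depths of 11765, 10654 and 9532 UMIs.

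The lower level at E13.5 was also seen in other classes of the same libraries. The list summed to 2657, 1432 and 2218 CPM in matrix-rich stroma, to 2023, 1331 and 1402 CPM in surface epithelium and to 400, 180 and 347 CPM in supporting cells. Of 9 S phase genes that passed, none was called, and their sum was 1008, 768 and 1008 CPM. The log2 change of the G2 and mitosis list from E12.5 to E14.5 was 0.23 (0.19 to 0.27) in all counted cells and 0.082 in sub-clusters 1 to 3. Among the CDK inhibitors, Cdkn1b and Cdkn1c were lower than in supporting cells, with Cdkn1c at 513, 406 and 543 CPM against 3024, 2420 and 2260 CPM. Cdkn2c, another inhibitor, rose from 9.32 to 9.67 and 28.7 CPM, and Ccnd1, cyclin D1, fell from 42.9 to 32.0 and 20.4 CPM.

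**Figure D4:**
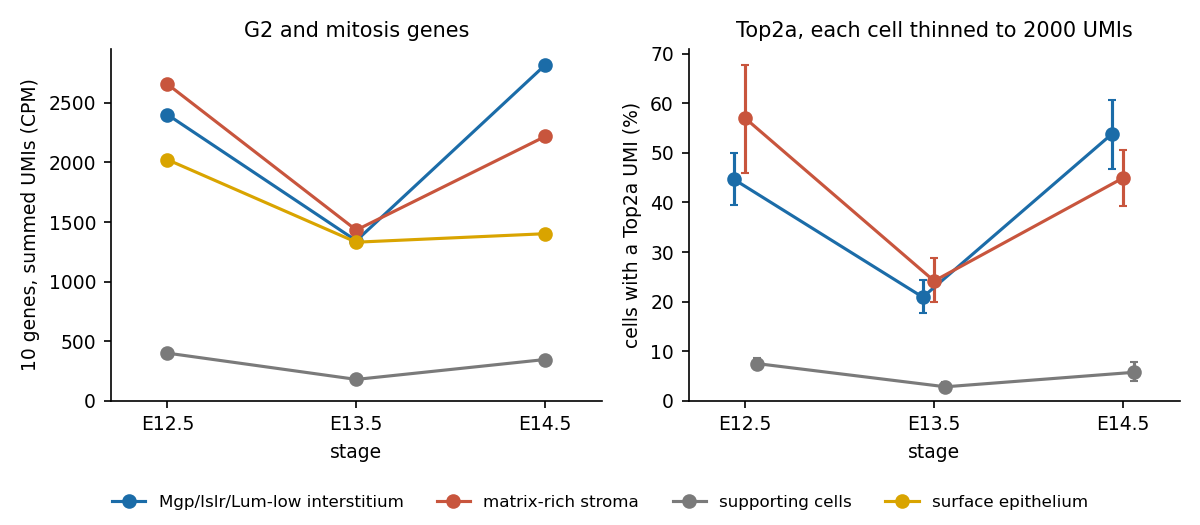
Left, summed CPM of 10 G2 and mitosis genes (y) by stage (x) in 4 cell classes. Right, share of cells with a Top2a UMI (y, %) at 2000 UMIs per cell with 95% Clopper-Pearson intervals in 3 of these classes. Every class is lower at E13.5 than at E12.5, and the blue points (Mgp/Islr/Lum-low interstitium) go from 44.7% to 20.9% and 53.8%.

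The class was not uniform. Leiden clustering of the 1190 cells gave 7 sub-clusters, and the genes that lead them define them and are not results. Sub-cluster 1 (391 cells) had 28.8 CPM of Top2a against 478 CPM in the other cells of the class, and was led by S100a8 and S100a9. At E13.5, 99.4% of the granulocyte-gene UMIs lay in 5 cells of the class. Sub-cluster 2 (212 cells) was led by S phase genes such as Hist1h2ap and Tcf19, and sub-cluster 3 (164 cells) by Cdc20 and Ccnb1. Sub-clusters 2 and 3 together held 34.3% (29.3 to 39.5), 21.9% (18.7 to 25.3) and 55.7% (48.7 to 62.5) of the class. Sub-cluster 1 held 14.3%, 48.4% and 18.4%.

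Sub-cluster 4 (155 cells) was led by genes that included the transcription factors Ebf1 and Alx1, with Emcn and Ndufa4l2. It held 91 of 356 cells at E12.5, 62 of 622 at E13.5 and 2 of 212 at E14.5, or 25.6% (21.1 to 30.4), 9.97% (7.73 to 12.6) and 0.943% (0.114 to 3.37). It had 103 CPM of Rgs5, 61.2 of Kcnj8 and 29.7 of Abcc9, which are among the 6 perivascular markers, 122 CPM of Pdgfrb and 179 CPM of Des. In the other cells of the class Kcnj8 and Abcc9 stood at 3.67 and 1.66 CPM. Cspg4, of the same markers, was low in sub-cluster 4 too, at 8.22 CPM against 4.46 CPM in the other cells. Mcam and Notch3 are not given here for this sub-cluster. Of the gonadal identity genes, Gata4 and Lhx9 were low there, with 12.3 and 14.6 CPM against 80.7 and 80.2 CPM in sub-cluster 1. Emx2 stood at 27.4 CPM against 86.9 CPM, whereas Cbx2 stood at 16.4 CPM against 15.4 CPM. The rest of that list is not given here for this sub-cluster. Over the whole class, Ebf1 fell from 50.3 CPM (44.3 to 56.8) to 33.9 (29.5 to 38.8) and 3.24 (1.30 to 6.68), Alx1 from 27.8 to 21.4 and 4.17 CPM, and Rgs5 from 71.4 to 17.3 and 8.80 CPM. Of the 6 perivascular markers Rgs5 alone passed the minimums for this comparison, all 6 were detected at every stage, and their sum was 120, 63.7 and 35.6 CPM. At coarser and finer clustering the matching group held 52 and 60 or 59 and 62 cells of the first stages and 2 of the last. In sub-clusters 1 to 3 alone, the log2 ratio was -1.89 for Ebf1 and -2.69 for Rgs5, in place of -3.96 and -3.02.

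Sub-clusters 5 and 6 carried genes of the supporting cells and the surface epithelium. Sub-cluster 5 (130 cells) was led by Kctd14, Calb1, Gng13, Clu and Wnt6, had 1140 CPM of Kctd14, and 5 of the 9 called doublets. Sub-cluster 6 (126 cells) was led by Upk3b, Tm4sf5, Myrf, Krt19 and Myl7, with 168 CPM of Upk3b, 14.8 CPM of Ngfr and 4.31 CPM of Itga8, so the interstitial markers outside the rule were low in it. Sub-cluster 7 (12 cells, 11 of them at E13.5) was led by Osr2, Agtr2, Smoc2, Moxd1 and Thy1. Sub-clusters 1 to 3 together held 48.6%, 70.3% and 74.1% of the class in stage order.

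**Figure D5:**
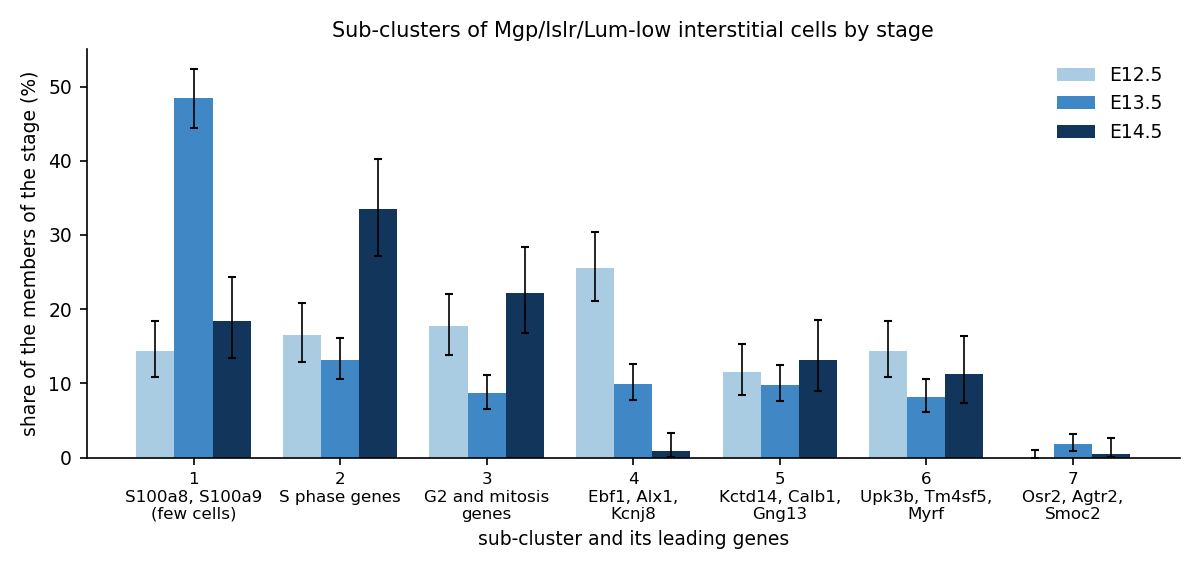
Share of the class in each sub-cluster (y axis, %) at E12.5, E13.5 and E14.5 (light to dark bars), with 95% Clopper-Pearson intervals and the leading genes under each sub-cluster number (x axis). Sub-cluster 4 goes from 25.6% to 0.943%, sub-cluster 1 peaks at E13.5 with 48.4%, and sub-clusters 2 and 3 are highest at E14.5.

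Markers of further cell types were also summed. Over 8 supporting cell markers the class had 266, 251 and 319 CPM against 2124, 2244 and 2103 CPM in supporting cells, with Foxl2 at 0 UMIs, and 2 of 5 that passed were higher at E14.5, Wnt6 and Irx3, both genes of the rule. The 6 surface epithelium markers summed to 75.5, 88.6 and 133 CPM, with Krt19, also of the rule, called higher. Of all genes, 2.28% were higher at E14.5. Immune markers summed to 1.55, 28.9 and 6.48 CPM, steroidogenic markers to 5.24, 3.81 and 7.87 CPM with Insl3 at 0 UMIs, and mesonephric epithelium markers to 9.70, 9.99 and 14.8 CPM with Cdh16 at 0 UMIs. The neural crest and glia markers Sox10, Foxd3 and Erbb3 were at 0 UMIs, and the endothelial markers summed to 32.2, 42.5 and 26.8 CPM. The part of these cell types in the stage changes was not tested.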

How the data were processed

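The deposited table holds natural log values that the authors made as ln(1 + UMIs per 10000 UMIs of the cell), a unit read from the values. Per the submitters' processing notes Cell Ranger 2.2.0 and mm10 were used, with no role stated, and cell filters are not given in the sources used here. UMI counts were recovered exactly (all 69792436 values above 0 were whole multiples at a relative tolerance of 1e-06) and used in place of the counts the plan had assumed. Sums, CPM, exact intervals and the rule of size were computed with scipy 1.17.1, doublets were scored per library with scanpy 1.11.5 (Scrublet, assumed rate 0.06) and kept, and sub-clusters used Leiden (0.10.2) on 2000 variable genes, 30 components, 15 neighbours and resolution 0.5. Thinning to 2000 UMIs left out 0 cells. The rule of size was tested on simulated data. Genes are named from fixed lists, as the 10 largest and 10 smallest called ratios over stage, likewise against matrix-rich stroma, and as the top 5 genes of each sub-cluster. Members, lists and rules were chosen with earlier results of these data known. With 1 library per stage the counts per library (69458291 to 80377418 UMIs) limit counting error only, and variation between litters is unknown. A few genes that these rules would name are not reported here.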

Additional observations from a re-analysis of the deposited data

How the results depend on the processing

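No paired analysis was possible because each stage has 1 library, and no replicate could be left out. The share of the class, in stage order 7.35%, 12.8% and 4.43%, was 4.71%, 9.87% and 3.61% with at least 4 of the 6 interstitial genes, 3.35%, 3.28% and 0.794% with none of Mgp, Islr and Lum, and 5.89%, 10.5% and 3.09% with no germ cell gene. With cells thinned to 5000 UMIs it was 4.23% at E12.5 and 5.87% at E14.5, and among cells of at least 10000 UMIs 2.15% at E14.5 and 8.28% at E13.5. Over denominators chosen after seeing the data it was 80.5%, 61.5% and 40.2% of interstitial cells and 8.48%, 15.3% and 9.29% of cells neither germ nor erythroid. The 219 genes changed from E12.5 to E14.5 became 552 without minimums and 44 at a ratio of 4. Higher genes were 61.2% of them, 45.1% with none of Mgp, Islr and Lum and 47.2% in sub-clusters 1 to 3. Median-of-ratios scaling gave 57.5% and a shift of -0.039 on the log2 scale. The 8 genes called against matrix-rich stroma became 20 with none of Mgp, Islr and Lum, 5 with no germ cell gene, 2 at a ratio of 4 and 13 in sub-clusters 1 to 3 (added after seeing the data). The log2 change of the G2 and mitosis list (0.230) was 0.317 with no germ cell gene, 0.344 among cells of at least 10000 UMIs, 0.171 with cells thinned before the rule, 0.319 as a mean over cells and 0.082 in sub-clusters 1 to 3. The causes were not tested. The leave-outs of the globin-rich and granulocyte-gene cells were also chosen after seeing the data. Of the values of the 20 genes with the largest and smallest ratios under other settings, 180 stayed within their counting interval, 37 moved and 0 changed sign.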
